A study of Homo sapiens with 78 samples.

Results

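The nuclear lamina and its partners at the nuclear envelope were followed through 8 genes, LMNA, LMNB1, LMNB2, LBR, SUN1, SUN2, TMPO and BANF1, in single cells of 2 human lines. The genes were picked by name from 62744 genes and unmatched transcripts in the files, of which 36716 had at least 1 estimated count in any well. The LMNA gene was picked for its counts in A375, so its difference between the lines is given as a description, and the other 7 genes were tested. The series holds 78 wells of total RNA libraries, each meant to hold 1 sorted cell. The A375 line is a human melanoma line, and its cells were sorted into PBS with a CD47 antibody. The Jurkat line, clone E6.-1, is a human T cell leukemia line, and its cells were sorted into lysis solution with a CD81 antibody, so the line and the sort buffer cannot be told apart. The SMARTer Stranded v2 Pico kit (#634413) and the SMART-Seq Stranded Kit (#634444) were each used on 21 A375 and 18 Jurkat wells, and the labels name no treatment or genetic change of either line.

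The lamina is a meshwork of intermediate filaments under the inner nuclear membrane. A-type lamins, which LMNA encodes as lamin A and lamin C, vary strongly between tissues and are typically low in lymphoid cells, whereas the B-type lamins of LMNB1 and LMNB2 are found in most cells and stay tied to the membrane by a lipid anchor. The lamin B receptor LBR and the products of TMPO, known as lamina-associated polypeptide 2, tether the lamina to chromatin. SUN1 and SUN2 span the inner membrane and bind nesprins, which reach into the cytoplasm, and BANF1 encodes a small DNA-binding protein that links chromatin to LEM domain proteins such as those of TMPO.

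Total counts ranged from 909 to 2567265 per well with a median of 813697, and the 9 wells under 25% of that median were all A375 wells, 4 of kit #634413 and 5 of kit #634444. Marker genes matched the labels in the 36 Jurkat wells, where the T cell list summed to between 1641 and 4619 CPM and the melanoma line list to at most 67.8 CPM (CPM is a count normalised to the gene counts of its well). In A375, the T cell list reached at most 80.5 CPM, and melanoma line genes held more counts than T cell genes in 18 of 21 and 17 of 21 wells, and CSPG4 was counted in 17 wells of each kit. A375 well 11 of kit #634413 held 9 T cell counts and 0 melanoma line counts. That well stayed among the wells of at least 25% of the median total. A375 wells 4 and 6 of kit #634413 and wells 2, 9, 11 and 18 of kit #634444 had between 250 and 1972 gene counts. These wells had 0 counts on both marker lists, and whether they held a cell was not tested. They stayed in the main fits and in the values given over all 21 A375 wells of a kit. Of the melanoma markers, PMEL was counted in 1 A375 well of each kit and MLANA in 1 and 2 wells, whereas MITF, a regulator of the melanocyte lineage, was counted in 12 A375 wells of each kit at a mean of 8.33 and 12.4 CPM. Protein coding genes held under 50% of the gene counts in 2 A375 wells of kit #634413 above the depth limit, 10.4% and 20.4%, where pseudogenes named as copies of mitochondrial genes held 73.3% and 52.8%. Nothing in the labels says that wells came from separate cultures, so the p-values measure only the spread between these wells.

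The gene models lie on 7 chromosomes of GRCh38 in GENCODE v44. LMNA lies at chr1:156082573-156140081 on the plus strand and LBR at chr1:225401502-225428925 on the minus strand. The B-type lamin genes lie apart, LMNB1 at chr5:126776623-126837020 on the plus strand and LMNB2 at chr19:2427638-2456959 on the minus strand. SUN1 lies at chr7:816615-896435 on the plus strand and SUN2 at chr22:38733290-38794143 on the minus strand. TMPO lies at chr12:98515579-98550351 and BANF1 at chr11:66002228-66004149, both on the plus strand.

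Promoters from RefSeq (GRCh38.p14, 250 bases before to 50 bases after a start site, 5′ to 3′ on the gene's strand) are shown for the B-type lamin genes and TMPO, whose levels moved together in A375 wells. The start site of each window is the annotated start of the most counted coding transcript of its gene. The windows are chr5:126776886-126777185 on the plus strand for LMNB1, chr19:2456910-2457209 on the minus strand for LMNB2 and chr12:98515340-98515639 on the plus strand for TMPO. Capitals mark the letters CCAAT on either strand (ATTGG on the other).
LMNB1: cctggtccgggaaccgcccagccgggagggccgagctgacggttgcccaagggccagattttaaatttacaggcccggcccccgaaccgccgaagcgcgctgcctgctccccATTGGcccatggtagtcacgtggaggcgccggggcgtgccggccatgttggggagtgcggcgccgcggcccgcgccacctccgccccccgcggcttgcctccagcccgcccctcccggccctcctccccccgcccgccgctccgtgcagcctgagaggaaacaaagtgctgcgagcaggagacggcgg
LMNB2: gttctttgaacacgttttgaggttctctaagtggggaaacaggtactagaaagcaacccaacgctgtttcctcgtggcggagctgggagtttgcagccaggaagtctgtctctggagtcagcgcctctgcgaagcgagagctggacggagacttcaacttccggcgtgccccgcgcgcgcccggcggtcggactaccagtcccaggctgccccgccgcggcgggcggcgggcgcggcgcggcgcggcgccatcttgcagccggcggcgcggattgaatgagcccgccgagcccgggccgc
TMPO: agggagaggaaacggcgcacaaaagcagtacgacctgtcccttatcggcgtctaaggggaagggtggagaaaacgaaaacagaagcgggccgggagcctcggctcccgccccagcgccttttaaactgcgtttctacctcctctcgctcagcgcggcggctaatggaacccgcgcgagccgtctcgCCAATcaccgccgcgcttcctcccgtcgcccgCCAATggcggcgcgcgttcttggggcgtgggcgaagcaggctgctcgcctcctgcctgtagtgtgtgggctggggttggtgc
The CCAAT letters were found in 1 place in the LMNB1 window, in 2 places in the TMPO window and in none of the LMNB2 window. They were present in 34.6% of the 35116 promoters of the same table. The letters TTTGAA were found in 1 place in the LMNB2 window, against 15.2% of all promoters, and TTTNNCGC in none of the 3, against 6.89%. Windows of LMNA, LBR, SUN2 and BANF1 were searched too and are not printed. The SUN2 window held CCAAT in 2 places and TTTGAA in 1, and the LMNA, LBR and BANF1 windows held none of these letters. The LMNA, LBR and SUN2 windows lay 7535, 783 and 38145 bases from the start of the most counted coding transcript.

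LMNA was abundant in A375 and close to the counting limit in Jurkat. In A375 with kit #634413, its level was 0 CPM in the lowest well, 482 CPM at the median and 1273 CPM in the highest, and with kit #634444 these were 0, 398 and 1139 CPM. In Jurkat, LMNA had 0 counts in 18 of 18 wells of kit #634413, and with kit #634444 it was counted in 3 of 18 wells, with 25.7 CPM in the highest. The groups overlapped only through shallow A375 wells with 0 counts, since among wells of at least 25% of the median total, the lowest A375 well had 90.97 CPM with kit #634413 and 217 CPM with kit #634444. The 90.97 CPM rested on 9.81 counts in well 8, where protein coding genes held 10.4% of the gene counts. The next lowest wells of kit #634413 were well 11, with 95.2 CPM and 20.4% protein coding counts, and well 18, with 203 CPM.

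**Figure D1:**
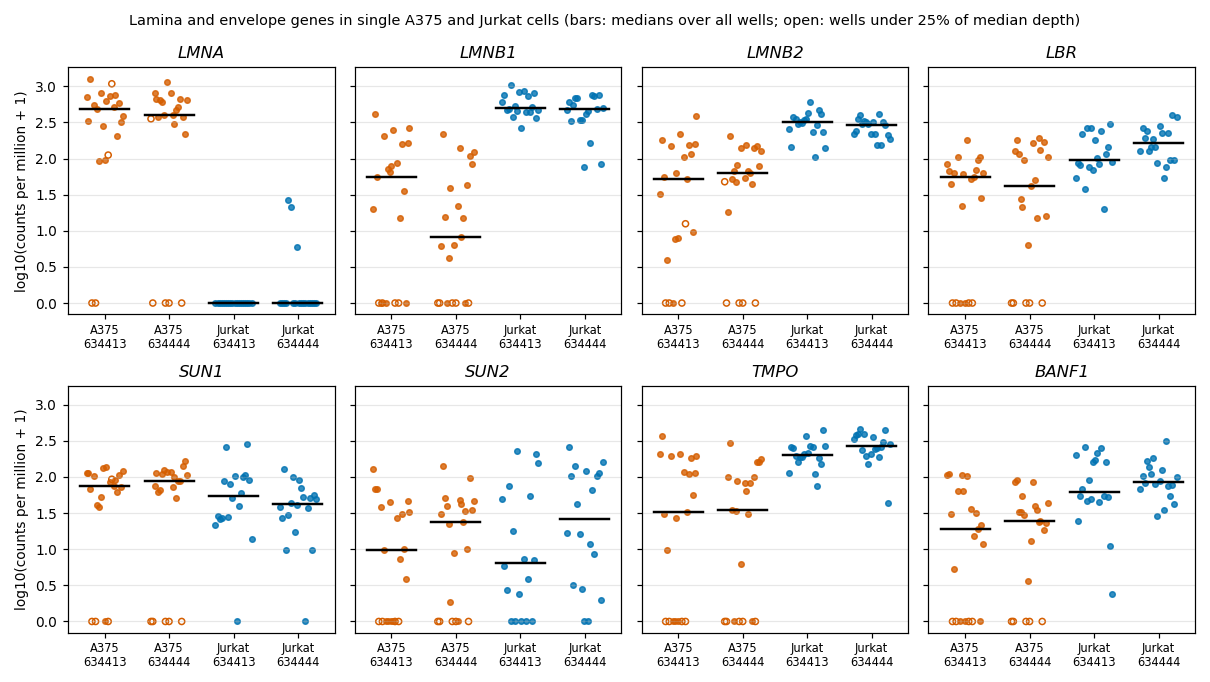
Level of each of the 8 genes in every well, as log10 of CPM plus 1 (y axis), by cell line and kit (x axis), with A375 in orange, Jurkat in blue, a bar at the median over all wells and open circles for the 9 shallow wells. LMNA lies at 0 in 18 Jurkat wells of kit #634413 and in 15 of kit #634444, while LMNB1 lies at 75.4 CPM or more in every Jurkat well and scatters down to 0 in A375.

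The LMNA mean with kit #634413 was 474 ± 346 CPM in A375 (SD, n = 21), at least 126-fold higher than in Jurkat, where every well was set to a floor of 3 counts per library, a mean of 3.76 CPM. With kit #634444, the mean was 447 ± 303 CPM in A375 (SD, n = 21) and 2.83 ± 7.49 CPM in Jurkat (SD, n = 18), a ratio of 158. The floor was not used for this ratio, and 3 counts per library would be a mean of 4.79 CPM there. The ratio is therefore not to be set against the 126-fold bound of the other kit. No test was made of the difference between the lines, which chose the gene. In the depth-matched view, with 18 and 16 A375 wells deep enough to be thinned to the same number of gene counts, LMNA was counted in all of them, in 0 of 18 Jurkat wells of kit #634413 and in 1 of 18 of kit #634444.

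Most of the few Jurkat counts lay on a transcript with no counts in A375 wells. Jurkat wells 5 and 6 of kit #634444 had 17 and 10 counts, all assigned to LMNA-214, a short model of 394 bases with no annotated coding sequence that had a mean of 0 counts in A375 wells of either kit. Jurkat well 9 had 1.94 counts, shared by LMNA-201 and LMNA-210. Where those counts came from was not tested.

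Within A375, the LMNA counts were spread over many transcript models. Of the LMNA counts in wells with at least 10, LMNA-201 held 29.2% ± 23.4 with kit #634413 and 26.3% ± 12.6 with kit #634444 (SD, n = 17 for each). LMNA-205, which encodes the 664 residues of lamin A and its precursor tail, held 16.05% ± 16.8 and 15.9% ± 12.04 of the counts. LMNA-204, which encodes 614 residues, held 8.1% ± 11.4 and 19.2% ± 19.1 in the same wells. LMNA-206, the 572-residue model of lamin C, had a mean of 0 counts in A375 with kit #634413 and of 1.40 with kit #634444. The LMNA-201 target is 1713 bases long, shorter than the 1995 bases of coding sequence that GENCODE v44 gives it, so the protein behind these counts is not known and the ratio of lamin A to lamin C cannot be read from them. Taking LMNA-205 alone, its share of LMNA TPM was 5.29% ± 4.05 with kit #634444 against 5.96% ± 6.64 with the other kit (SD, n = 17 for each). The difference of -0.68 percentage points lay within that spread (permutation test, two-sided, p = 0.726, adjusted p = 0.787 over 13 share tests).

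The B-type lamins showed the opposite order, with Jurkat above A375 in both kits. LMNB1 in Jurkat was 265 CPM in the lowest well of kit #634413, 496 at the median and 1027 in the highest, and 75.4, 478 and 753 CPM with kit #634444. In A375, the lowest well had 0 CPM with either kit, the median was 53.7 CPM with kit #634413 and 7.31 CPM with kit #634444, and the highest wells had 412 and 217 CPM. The lines therefore overlapped in LMNB1 only at the top of A375 and the bottom of Jurkat.

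LMNB1 was 5.51-fold lower in A375 with kit #634413 (log2 fold change -2.46, SE 0.52, edgeR adjusted p = 0.000108) and 10.5-fold lower with kit #634444 (log2 fold change -3.39, SE 0.55, edgeR adjusted p = 3.32e-07). LMNB2 had medians of 51.7 and 61.9 CPM in A375 against 315 and 293 CPM in Jurkat, in the order of the kits. It was 3.42-fold lower in A375 with kit #634413 (log2 fold change -1.77, SE 0.50, edgeR adjusted p = 0.00447) and 3.35-fold lower with kit #634444 (log2 fold change -1.74, SE 0.43, edgeR adjusted p = 0.000864). The lowest Jurkat wells had 105 and 151 CPM of LMNB2, and the highest A375 wells reached 383 and 204 CPM.

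LBR, TMPO and BANF1 were also lower in A375, past the threshold of 0.05 with kit #634444 and not with kit #634413. TMPO was 0, 33.5 and 297 CPM in the lowest, median and highest A375 well of kit #634444 against 43.2, 270 and 456 CPM in Jurkat, and it fell by 1.93 on the log2 scale (SE 0.50, edgeR adjusted p = 0.00147). BANF1 had a median of 23.9 CPM in A375 and 84.5 CPM in Jurkat with that kit (log2 fold change -1.55, SE 0.46, edgeR adjusted p = 0.0055). LBR had a median of 40.7 CPM in A375 and 165 CPM in Jurkat (log2 fold change -1.28, SE 0.47, edgeR adjusted p = 0.0296). With kit #634413, the log2 fold changes were -1.12 for TMPO, -1.36 for BANF1 and -1.20 for LBR, with edgeR adjusted p of 0.124, 0.0996 and 0.0941. These 3 genes passed with kit #634413 too when DESeq2 with poscounts size factors replaced edgeR (adjusted p from 0.00518 for LBR to 0.0319 for TMPO).

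SUN1 and SUN2, the inner membrane side of the bridge to the cytoskeleton, did not pass in either kit. SUN1 had medians of 75.2 and 86.8 CPM in A375 and 54.6 and 41.4 CPM in Jurkat, in the order of the kits, with overlapping ranges. Its log2 fold change was 0.07 (SE 0.56, edgeR adjusted p = 0.953) with kit #634413 and 0.87 (SE 0.49, edgeR adjusted p = 0.178) with kit #634444. Without the shallow wells, SUN1 with kit #634444 reached 1.23 (SE 0.36, edgeR adjusted p = 0.00506). On the log2(TPM + 1) scale over all wells, it was -0.21 with a limma adjusted p of 0.841. Mean SUN1 TPM over those same wells was nevertheless higher in A375, 45.6 against 34.9 in Jurkat, so its sign differed between summaries. SUN2 had medians of 5.53 and 28.3 CPM in Jurkat, the lowest after LMNA, and 8.88 and 22.5 CPM in A375. Its log2 fold changes were -0.68 (SE 0.82, edgeR adjusted p = 0.634) and -0.95 (SE 0.60, edgeR adjusted p = 0.238).

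**Figure D2:**
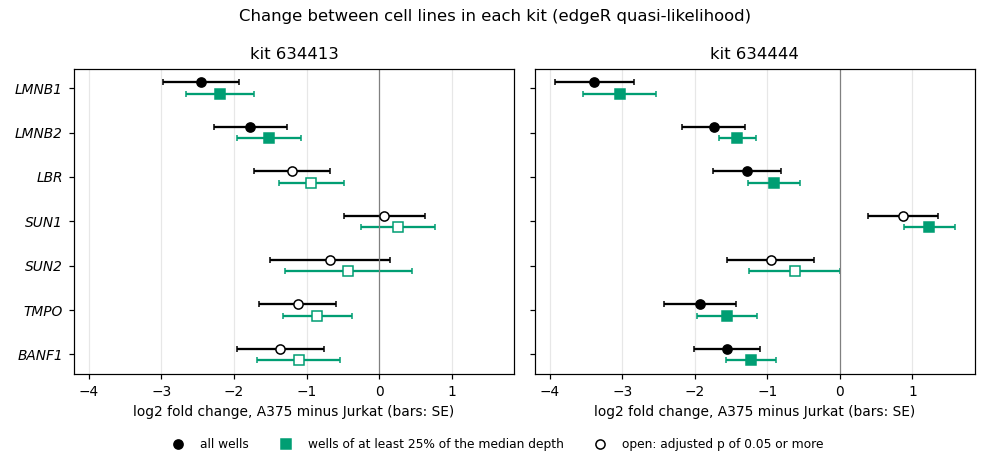
Log2 fold change of A375 minus Jurkat (x axis) for the 7 tested genes (y axis) in each kit, with SE bars, for all wells (black circles) and for wells of at least 25% of the median depth (green squares), filled where the adjusted p is under 0.05. LMNB1 and LMNB2 lie left of 0 and are filled in both panels, while SUN1 lies right of 0 and is filled only among the deeper wells of kit #634444.

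Of the 7 tested genes, 2 were lower in A375 with kit #634413, where 22.9% of all 11170 genes passed, 12.2% as higher and 10.7% as lower. With kit #634444, 5 of 7 were lower, where 30.3% of 12257 genes passed, 14.1% as higher and 16.2% as lower. The median log2 fold change of the 7 was -1.20 and -1.55, against -0.13 and -0.22 for all genes. In wells of at least 25% of the median total, 2 of 7 passed with kit #634413 and 6 of 7 with kit #634444, where SUN1 was higher. Over all genes, 2679 of 11659 and 4330 of 12731 passed in those wells, in the order of the kits. The median of all genes was 0.07 and 0.12 in that setting. Relative to the median of all genes, the main LMNB1 changes were -2.33 and -3.17.

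No member was shown to differ between the kits. In A375, 0 of 8 members passed the threshold (edgeR), where 0.0744% of 12095 genes did, and LMNB1 alone had an unadjusted p under 0.05 (log2 fold change of kit #634444 minus kit #634413 of -1.13, SE 0.55, edgeR adjusted p = 0.9997). LMNA differed between kits by -0.07 (SE 0.52) and SUN1 by 0.09 (SE 0.44) in A375. In Jurkat, 0 of the 7 genes tested passed (edgeR), where 0.0377% of 10624 genes did, and 0 of 7 had an unadjusted p under 0.05. SUN1 had the lowest value there, -0.74 (SE 0.54), and SUN2 the highest, 0.53 (SE 0.83). DESeq2 called none of them in either line. Standard errors of these kit differences ranged from 0.22 to 0.83, so the depth and number of wells could not show small ones.

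The difference between lines was not shown to depend on the kit. None of the 7 genes passed the test of the cell line by kit interaction (edgeR), where 1.39% of 11609 genes did, and 0 of 7 had an unadjusted p under 0.05 or passed with DESeq2. LMNB1 had the lowest interaction, -0.87 (SE 0.74), and SUN1 the highest, 0.86 (SE 0.72). So the calls of TMPO, BANF1 and LBR with 1 kit only do not show a difference between kits.

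Levels were compared between genes in TPM, which divides by transcript length, over wells of at least 25% of the median total. LMNA stood first in A375, with a median of 346 TPM with kit #634413 and 371 TPM with kit #634444, and its middle 50% of wells did not overlap that of the next gene, SUN1, at 50.5 and 50.2 TPM. The other A375 genes each overlapped their neighbour in the order, down to SUN2 at 6.34 TPM with kit #634413 and LMNB1 at 16.9 TPM with kit #634444. In Jurkat, LMNB1 stood first with medians of 287 and 163 TPM, also apart from the next gene, BANF1, at 78.6 and 88.4 TPM. BANF1, LMNB2, TMPO, LBR, SUN1 and SUN2 overlapped their neighbours in that line, and LMNA came last at 0. Part of the LMNB1 TPM lay on models with no annotated coding sequence: in Jurkat, LMNB1-208 held 28.9% ± 18.1 (SD, n = 18) and 34.99% ± 19.9 (SD, n = 18) of it, so TPM depends on how Kallisto divided reads between models of different length.

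The make-up of the lamina transcripts followed from these levels. LMNA held a median of 89.1% of lamin TPM in the 17 A375 wells of kit #634413 with at least 10 lamin counts, from 33.96% to 99.3%. With kit #634444 the median was 89.7% over 17 wells, from 59.0% to 98.6%. In Jurkat it was 0% in 18 wells of kit #634413, and with kit #634444 the median was 0% and the highest well 21.1%, which rested on the LMNA-214 counts and was 2.52% in estimated counts. LMNA held over 50% in 14 of 17 and 17 of 17 A375 wells and in no Jurkat well.

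**Figure D3:**
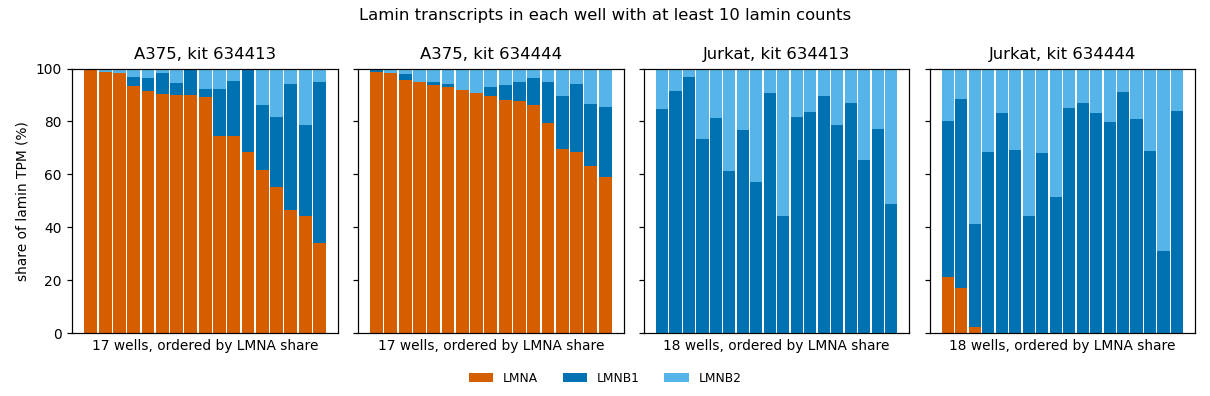
Share of lamin TPM (y axis, %) held by LMNA, LMNB1 and LMNB2 in each well with at least 10 lamin counts, 1 bar per well, ordered by the LMNA share within each cell line and kit. LMNA takes from 33.96% to 99.3% of the bars in A375 with kit #634413, while Jurkat bars are divided between LMNB1 and LMNB2 except in 3 wells of kit #634444.

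Between the B-type lamins, LMNB1 held most of the TPM in Jurkat, at 76.1% ± 14.97 with kit #634413 and 70.9% ± 17.9 with kit #634444 (SD, n = 18 for each). In A375, its share was 70.4% ± 20.8 (SD, n = 14) with kit #634413, which did not differ from Jurkat beyond the spread (two-sided permutation test, difference -5.71 percentage points, adjusted p = 0.670). With kit #634444 it was 44.8% ± 28.96 (SD, n = 16), lower than in Jurkat by 26.1 percentage points (permutation test, adjusted p = 0.0443), and this call was lost with a minimum of 30 counts (adjusted p = 0.0781). That line difference was -33.9 percentage points in estimated counts and passed there (permutation test, adjusted p = 0.00039). The difference between the kits in A375 was -25.7 percentage points (permutation test, p = 0.0110, adjusted p = 0.0715). In estimated counts, not divided by length, that difference was -26.7 percentage points and passed (permutation test, adjusted p = 0.00598).

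SUN2 and SUN1 were divided with much scatter. The SUN2 share of their TPM was 23.9% ± 21.4 (SD, n = 15) and 31.5% ± 20.6 (SD, n = 16) in A375 and 29.2% ± 34.8 (SD, n = 17) and 39.7% ± 33.9 (SD, n = 17) in Jurkat, in the order of the kits. None of the 4 comparisons passed (permutation tests, adjusted p from 0.670 to 0.728). TMPO-202, the model with the longest protein of 694 residues (the alpha form), held 9.32% ± 17.2 (SD, n = 13) and 9.82% ± 8.99 (SD, n = 13) of TMPO TPM in A375 and 13.4% ± 17.02 (SD, n = 18) and 16.8% ± 14.2 (SD, n = 18) in Jurkat. None of its 4 comparisons passed (permutation tests, adjusted p from 0.576 to 0.943).

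The spread between wells was given as a coefficient of variation, which also rises as counts fall, and no test compared it between genes or lines. Among the deeper A375 wells, the coefficient of variation of CPM was 0.58 and 0.41 for LMNA, 1.06 and 1.25 for LMNB1 and 0.45 and 0.31 for SUN1, in the order of the kits. In Jurkat it was 0.36 and 0.47 for LMNB1, 0.39 and 0.28 for LMNB2 and 1.01 and 0.71 for SUN1. LMNB1 was counted in 14 of 17 and 14 of 16 deeper A375 wells, and LMNA in all of them. In sums over blocks of wells with neighbouring index numbers, 3 per group, LMNB1 lay from 37.7 to 137 CPM in A375 and from 310 to 607 CPM in Jurkat, without overlap, and LMNA from 504 to 693 CPM in A375 and from 0 to 6.31 CPM in Jurkat.

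In A375, wells with more LMNB1 had more LMNB2 and TMPO, as log2(CPM + 1) centred within each kit over 33 deeper wells. Pearson's r was 0.73 for LMNB1 with LMNB2 (Spearman's rho 0.75), 0.62 for LMNB1 with TMPO and 0.67 for LMNB2 with TMPO. LMNA did not follow LMNB1, with r of 0.01. A list of 12 proliferation genes summed in each well went with LMNB1 at r of 0.68, with LMNB2 at 0.66, with TMPO at 0.57 and with LMNA at 0.32. Leaving out the 2 wells farthest from the median of the list gave 0.58, 0.48, 0.44 and 0.04. The gene counts of a well, which measure its depth, went with the 8 genes at r from 0.45 to 0.71, and from 0.19 to 0.53 without the 2 wells farthest from the median depth. Without the 2 wells low in protein coding counts, left out after the data were seen, depth went with the 8 genes at r from 0.15 to 0.51, LMNB1 with LMNB2 had r of 0.74, LMNB1 with TMPO 0.64, LMNB2 with TMPO 0.54 and LMNA with LMNB1 -0.22. The part of depth in these correlations was not tested.

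**Figure D4:**
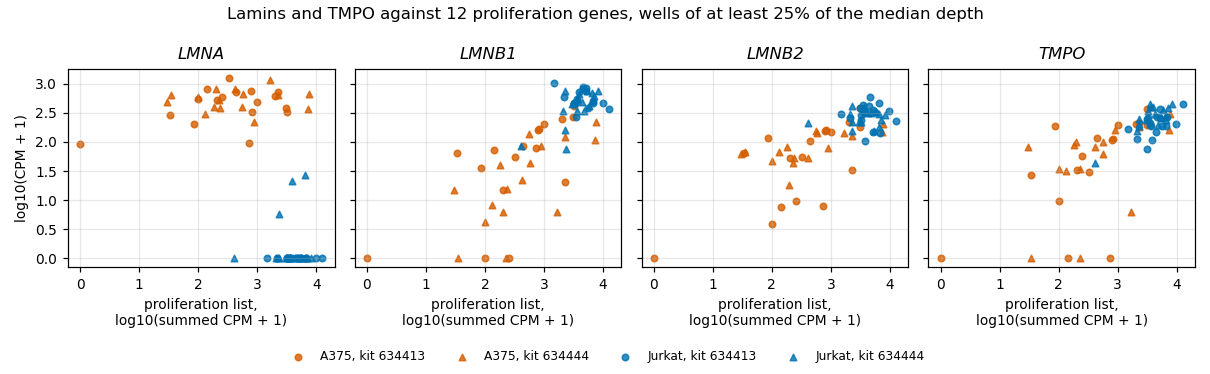
LMNA, LMNB1, LMNB2 and TMPO (y axis, log10 of CPM plus 1) against the summed CPM of 12 proliferation genes (x axis, log10 of the sum plus 1) in deeper wells, with A375 in orange, Jurkat in blue, circles for kit #634413 and triangles for kit #634444. In A375 the B-type lamins and TMPO are higher in wells with more proliferation counts (r of 0.68, 0.66 and 0.57), while LMNA is spread across the axis.

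In Jurkat the same correlations were computed over 36 wells, with no test of their difference from A375, and depth went with the 7 genes at r from -0.07 to 0.27. The proliferation list went with TMPO at r of 0.72, with LBR at 0.59, with SUN2 at 0.56 and with LMNB1 at 0.43, but with LMNB2 at 0.03 and with BANF1 at -0.17. LMNB1 with LMNB2 had r of 0.15 in Jurkat, LMNB2 with TMPO 0.15 and LMNB1 with TMPO 0.40. Without the 2 farthest wells, the values for TMPO and LMNB1 with the list were 0.54 and 0.30.

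The proliferation list also differed between the lines. Its summed level ranged from 0 to 3169 CPM in A375 with kit #634413 and from 1484 to 12744 CPM in Jurkat, and from 0 to 7635 and from 404 to 8236 CPM with kit #634444. Of its 12 genes, 10 were lower in A375 with kit #634413 and 7 with kit #634444 (edgeR), against 10.7% and 16.2% of all genes, and none was higher. BUB1, a spindle checkpoint kinase, had a median of 0 CPM in A375 with either kit and of 153 and 165 CPM in Jurkat (log2 fold change -3.66 and -3.17, edgeR adjusted p = 1.37e-05 and 6.02e-05). MCM5, a subunit of the replicative helicase, had log2 fold changes of -3.45 and -2.39, and RRM2, a ribonucleotide reductase subunit, of -2.32 and -3.47. The part of proliferation in the lamin difference was not tested.

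The genes whose pattern over the 33 A375 wells was most like LMNA, of 10429 compared, were ZBTB38 with r of 0.85, NEDD4L with 0.85, RASA1 with 0.83, FBXL5 with 0.81 and ARHGEF1 with 0.80. The r of these 5 with depth was from 0.60 to 0.71. Without the 2 wells low in protein coding counts, their r with LMNA was from 0.59 to 0.73 and with depth from 0.16 to 0.37. Among those most like LMNB1 over the 36 Jurkat wells, of 9443 compared, were EML4 with 0.66, DDX11 with 0.60, SPC25, a kinetochore component, with 0.58 and RFWD3 with 0.56, and their r with depth lay between -0.00 and 0.24.

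Other envelope genes did not move as one group. Nesprins bind the SUN proteins across the envelope, and of the 3 tested, SYNE2 was lower in A375 and SYNE1 higher in both kits. Among the 10865 genes tested in both kits, 1002 were lower and 1040 higher in both. SYNE2 had medians of 4.80 CPM in A375 and 534 CPM in Jurkat with kit #634413 (log2 fold change -3.37, SE 0.59, edgeR adjusted p = 2.01e-06) and of 35.3 and 268 CPM with kit #634444 (-2.56, SE 0.52, edgeR adjusted p = 4.23e-05). For SYNE1 they were 196 and 7.33 CPM, then 169 and 37.9 CPM (log2 fold change 2.11 and 1.44, edgeR adjusted p = 0.0117 and 0.0209). SYNE3, named after its values were seen, passed as higher with kit #634413 only, and its log2 fold change with kit #634444 was -0.33 (SE 0.76). Its medians with kit #634444 were nevertheless 11.2 CPM in A375 and 1.08 CPM in Jurkat, with 1398 and 329 CPM in the highest wells.

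None of the 4 other LEM domain genes passed in either kit with edgeR or DESeq2, 0 had an unadjusted p under 0.05, and their median log2 fold change was -0.27 and -0.44. Over all genes, 22.9% and 30.3% passed with edgeR, in the order of the kits. EMD, which encodes emerin, had log2 fold changes of -0.62 (edgeR adjusted p = 0.676) and -0.80 (edgeR adjusted p = 0.356). Likewise, 0 of 5 lamin processing genes passed with edgeR, and 2 with kit #634413 and 1 with kit #634444 had an unadjusted p under 0.05. Over all genes, 3595 of 11170 and 4815 of 12257 had an unadjusted edgeR p under 0.05, and DESeq2 called 3022 and 4300. DESeq2 called 0 and 1 of the 5 lamin processing genes, the latter being ICMT, named after its values were seen. ZMPSTE24, the protease that trims prelamin A, had medians of 80.5 and 83.8 CPM in A375 against 6.23 and 53.5 CPM in Jurkat, and log2 fold changes of 1.65 (SE 0.72, edgeR adjusted p = 0.0911) and 0.40 (SE 0.51, edgeR adjusted p = 0.609).

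Of 8 inner membrane and torsin genes, NRM, which encodes nurim, was lower and TOR1AIP2, a torsin activator, was higher in A375 with both kits. Over all 10865 genes tested in both kits, 1002 were lower and 1040 higher in both. TMEM43, named after its values were seen, passed as higher with kit #634444 only (log2 fold change 1.31, edgeR adjusted p = 0.0384). NRM had a median of 0 CPM in A375 and of 21.7 and 20.3 CPM in Jurkat (log2 fold change -3.18 and -3.71), and TOR1AIP2 rose by 1.89 (edgeR adjusted p = 0.00258) and 1.97 (edgeR adjusted p = 0.00078). HP1 proteins bind methylated histone H3 and LBR, and of 3 tested, CBX1 and CBX5 were lower in A375 in both kits, against 9.22% of all genes. CBX3, named after its values were seen, passed as lower with kit #634444 only. Its log2 fold changes were -0.85 (edgeR adjusted p = 0.222) and -1.32 (edgeR adjusted p = 0.0175). CBX5 had medians of 179 and 193 CPM in A375 and of 716 and 760 CPM in Jurkat (log2 fold change -1.56 and -1.85), and CBX1 had log2 fold changes of -1.92 and -2.28. Of the 2 kinases of the BANF1 protein listed, VRK1 had medians of 0 and 6.02 CPM in A375 and of 68.4 and 85.6 CPM in Jurkat, and was lower in both kits (edgeR adjusted p = 0.0401 and 0.00021). VRK2, named after its values were seen, was not tested with kit #634413 and was higher in A375 with kit #634444 (edgeR adjusted p = 1.39e-07), where it was counted in 15 of 21 A375 wells, with a median of 15.4 CPM, and in 1 of 18 Jurkat wells.

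Nucleoporins build the pores of the envelope. Of 31 tested, 6 were lower in A375 with kit #634413 and 8 with kit #634444, against 10.7% and 16.2% of all genes, and none was higher. In both kits 5 were lower, against 9.22% of the 10865 genes tested in both. The list's median log2 fold change was -0.82 and -0.74. NUP210, a membrane nucleoporin, had medians of 4.43 and 6.02 CPM in A375 and of 638 and 450 CPM in Jurkat (log2 fold change -4.75, SE 0.59, edgeR adjusted p = 1.84e-10 and -4.22, SE 0.56, edgeR adjusted p = 1.39e-09). NUP93 had log2 fold changes of -2.33 and -2.59 and NUP62, a central channel component, of -2.54 and -2.04. Between the kits, 0 of 67 genes of these wider lists, proliferation included, passed in A375 and 0 of 66 in Jurkat with edgeR or DESeq2. An unadjusted edgeR p under 0.05 was seen for 4 and 3 of them. The 4 in A375 and 2 of the 3 in Jurkat were proliferation genes. Over all genes, 9 of 12095 and 4 of 10624 passed with edgeR, and 462 and 348 had an unadjusted p under 0.05.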

How the data were processed

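The authors trimmed reads with cutadapt, quantified Ensembl v91 transcripts with ERCC spikes by Kallisto (kallisto 0.43.1 per the submitters' notes) in stranded mode, and deposited expected counts (estimated counts, not normalized) and TPM per transcript. STAR 2.5.3 on hg38 served the authors' quality checks. Each well was taken as 1 sorted cell, with groups from the labels.

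Transcripts were summed to genes with GENCODE v44 (4356 unmatched targets, 4.59% of counts, kept singly). The rDNA unit and spikes, 11.9% of counts, name no gene and stayed out. Rounded gene counts entered edgeR 4.0.16 in R 4.3.3 (glmQLFTest, TMM) where at least 5 counts were seen in at least 25% of wells, with Benjamini-Hochberg adjustment over all genes. Shares were compared by two-sided permutation tests with 100000 resamples. On simulated data with 200 changed genes (log2 change 3), edgeR recovered 122 and 166 for the line contrasts of kits #634413 and #634444. False calls were 13 of 135 and 7 of 173 genes called. The simulated counts were negative binomial with a pooled mean rate per gene, so zeros beyond that model were not simulated. Alternatives were DESeq2 1.42.0, limma 3.58.1, other scaling, filters, wells and units. The wells chosen by their own line's markers were an alternative added after the data were seen. Members and lists were chosen with earlier results of these data known. From each wider list, up to 3 genes past the threshold in both kits with the largest change were named, with EMD, ZMPSTE24, SYNE1 and SYNE2 in any case, and the 5 genes most like LMNA or LMNB1 were taken among those with a mean of at least 10 counts (1 gene like LMNB1 is not reported here). Of 3003 pairs of wells, 0 held identical values.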

Additional observations from a re-analysis of the deposited data

How the results depend on the processing

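LMNB1 and LMNB2 were lower in A375 and passed the threshold in both kits under each of the 9 alternatives, with log2 fold changes from -4.11 to -2.19 and from -2.92 to -1.47 with kit #634413 and from -4.32 to -2.73 and from -2.30 to -1.41 with kit #634444. TMPO, LBR and BANF1 passed with kit #634444 under all 9 and with kit #634413 under 2 of them, DESeq2 and log2(TPM + 1). SUN1 with kit #634444 passed under 4 of 9 (library size alone, the deeper wells, wells whose own markers held more counts, and sums over blocks of 8 index numbers, the block fit having 3 sums per group). The median of all genes ranged from -0.24 to 0.27 in kit #634413, and from -0.42 to 0.26 in kit #634444.

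Counts of genes called moved with the filter: with no filter beyond 1 count in 3 wells, 7558 and 9291 genes were called between the lines in kits #634413 and #634444, 1928 and 1466 between the kits in A375 and Jurkat, and 3099 for the interaction, where the main counts were 2559, 3709, 9, 4 and 161. Under that filter LMNA entered the Jurkat kit fit with a log2 fold change of 4.23 (adjusted p = 0.0035), resting on the 3 wells described above. Between the kits in A375, 1 gene was called in the deeper wells, 3 in wells whose own markers held more counts, 1 in block sums and 5 with log2(TPM + 1). Between the kits in Jurkat, 16 were called by DESeq2, 1 in block sums and 81 with log2(TPM + 1). For the interaction, DESeq2 called 27, block sums 1 and limma on log2(TPM + 1) 0, with 428 at an unadjusted p under 0.05. The cause of these changes was not tested.

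Directions turned for values that did not pass in the main test. Between the lines, SUN1 became -0.059 with DESeq2 in kit #634413 and -0.21 with log2(TPM + 1) in kit #634444. With log2(TPM + 1), the kit difference in A375 became 0.38 for BANF1, 0.29 for LMNB2 and -0.083 for SUN1, that in Jurkat 0.23 for BANF1 and 0.29 for SUN1, and the interaction 0.15 for BANF1 and -0.37 for SUN1. LMNA between the kits in A375 became 0.16 in the deeper wells and 0.078 in wells whose own markers held more counts. The LBR interaction became 0.078 with library size alone, 0.026 in the deeper wells and 0.0081 in wells whose own markers held more counts, and that of LMNB2 became -0.22 in wells with at least 50% protein coding counts. For the LMNB1 share of B-type lamin TPM between the lines in kit #634444, the difference was -24.8 percentage points with at least 30 counts (adjusted p = 0.0781) and -26.6 as block means, where 3 against 3 cannot go below 0.1 (exact permutation test). In estimated counts it was -33.9 (permutation test, adjusted p = 0.00039). Between the kits in A375 it was -26.7 in estimated counts and then passed.

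No paired analysis was possible because replicate numbers were given in accession order and mark no shared culture, plate or day. Depth limits the A375 side: 4 and 5 of its 21 wells per kit fell under 25% of the median total.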
